A study of Mus musculus with 8 samples.

Results

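The genes described here are 40 genes of the cell division cycle, compared separately for G1, S and G2/M. They were taken by gene symbol from the 18770 genes of the deposited table, and all 40 were found. The grouping counted the D-type cyclin genes (Ccnd), the E-type cyclin genes (Ccne), Cdk4 and Cdk6 as G1. The Mcm genes, Pcna, the Rrm genes, Tyms and E2f1 were counted as S. Cdk2 was placed here with the G1 genes, and Cdc45, Cdc6 and Gins2 with the S genes, which gave 8 G1 genes, 14 S genes and 18 G2/M genes.

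Wildtype C57BL/6 mice (C57BL/6J in the study's methods), labelled as 7 to 8 weeks old, had been depilated on the back, which sets resting hair follicles into growth; the methods give 6 to 7 weeks as the age at depilation. From the following day the vehicle group (VC, 4 libraries) received 20 µl of 65% ethanol on the skin once daily. The alpinetin group (AP, 4 libraries) received the same volume and solvent with 3 mg/ml alpinetin, a flavonoid of plant origin. Polyadenylated RNA was sequenced at D4 after depilation. By the study's methods it came from dermis with its hair follicles, after removal of the keratinocytes of the epidermis between follicles. How complete this removal was in each group is not given. Transcripts of suprabasal keratinocytes were found in both groups and were higher in AP, as described below. The libraries are numbered 1 to 4 in each group, and values below are listed in that order, VC first; the numbers are not tied to single mice by the labels and pair nothing. The question was whether genes of successive cell cycle phases differed in transcript level between the groups.

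In G1, D-type cyclins with Cdk4 or Cdk6, followed by E-type cyclins with Cdk2, phosphorylate pocket proteins and so release E2F factors, which switch on genes for DNA replication. The S genes include the Mcm helicase subunits, the sliding clamp Pcna and enzymes that supply deoxynucleotides, whereas the G2/M genes encode cyclins, kinases, kinesins and kinetochore proteins of mitosis. Within hair follicles at the start of a hair cycle, dividing cells are found mainly in the hair germ and the matrix at the follicle base.

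Depth differed between the groups. The reads on listed genes numbered 7264151, 6833615, 6479827, 6454563 (VC) against 8507783, 10853773, 11190113, 8863517 (AP). All 4 AP libraries were deeper than all 4 VC libraries (exact permutation test, two-sided, p = 0.0286, the smallest that 4 against 4 can give). The 13 genes encoded by the mitochondrial genome held 54.3, 44.9, 42.1 and 52.3% of the reads (VC) against 11.1, 7.85, 5.32 and 10.3% (AP; exact permutation test, p = 0.0286). Without these 13 genes the reads numbered 3318511, 3762217, 3750728, 3080758 (VC) against 7561598, 10002082, 10594787, 7947297 (AP). The part of mitochondrial reads in the results below was not tested. The least-covered value of any of the 40 genes was 19 reads (Ccne1), so every gene lay above the floor of 3 reads in every library.

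All 40 genes passed the filter on low values, and 1 of them differed between AP and VC by limma at an adjusted p under 0.05. This gene was Rrm1, higher in AP. Over all 15964 genes tested, 1011 were higher (6.33%) and 639 lower (4%) by the same criterion. Thus 0 of 8 G1 genes, 1 of 14 S genes and 0 of 18 G2/M genes passed in limma. By edgeR on reads recovered by undoing the deposited scaling 0, 1 and 1 passed, the S gene higher and the G2/M gene lower. By DESeq2 3, 2 and 1 passed, with 1 G1 gene higher and 2 lower, 2 S genes higher and 1 G2/M gene lower. Of all genes tested, edgeR called 6.28% and 4.46% higher and lower, and DESeq2 10.5% and 8.53%. At an unadjusted p under 0.05 in limma, 1 G1 gene was higher and 3 lower, 3 S genes were higher and 0 lower, and 1 G2/M gene was higher and 2 lower. The same criterion held for 17% of all genes tested in the higher and 13.3% in the lower direction. In 1 of the 40 genes the AP values lay wholly above the VC values, against 10.3% of all genes tested, and in 3 of 40 wholly below, against 8.91%. The median log2 fold change was 0.09 for G1, 0.07 for S and 0.15 for G2/M, beside 0.06 for all genes tested. Each of the 3 medians turned below 0 in some alternative settings or with 1 library left out, and no list was tested as a whole. In bulk RNA of this kind, fewer dividing cells and less RNA per cell cannot be told apart.

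**Figure D1:**
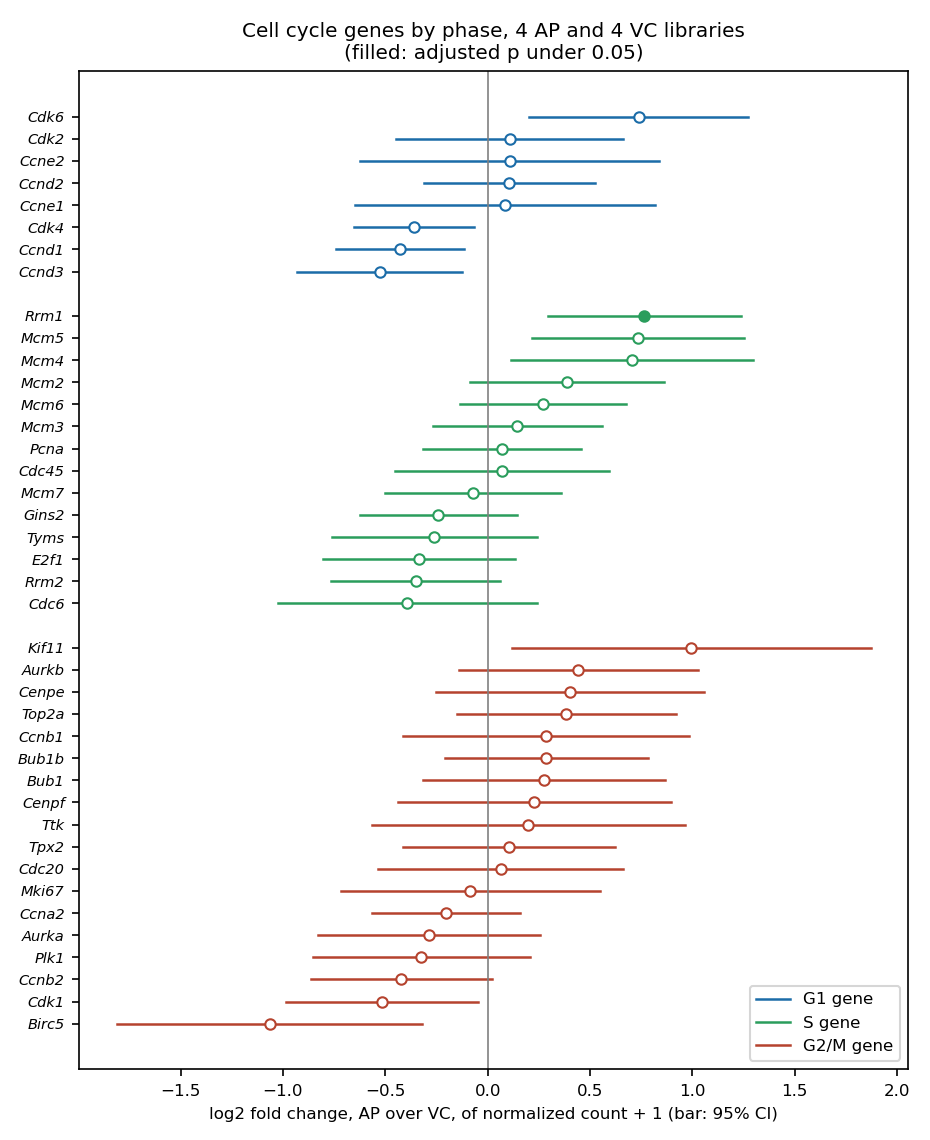
Log2 fold change of AP over VC for each of the 40 genes, grouped by phase and ordered by size, with the point at the limma estimate (4 libraries per group) and the bar over its 95% confidence interval. The filled point is Rrm1, with an adjusted p of 0.045; estimates run from -1.07 for Birc5 to 0.99 for Kif11.

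The scaling of libraries sets the level that a difference is measured from. With total counts, which include the mitochondrial reads, the all-gene median moved by 0.84 to 0.90, so that every member with an estimate below 0 except Birc5 turned positive: Ccnd1 to 0.44, Ccnd3 to 0.34, Cdk4 to 0.51, Rrm2 to 0.52 and Cdk1 to 0.35, with Birc5 at -0.20. Rrm1 stood at 1.63. With this scaling 5 of 8 G1, 10 of 14 S and 12 of 18 G2/M genes passed in limma. Of all 15964 genes tested, 8657 were higher and 70 lower, so the member counts rose together with those of all genes. With total counts without the mitochondrial genes the all-gene median moved by 0.04, and 0 of the genes followed under each setting changed sign; with upper-quartile factors it was also 0. A lower level below means lower beside the bulk of genes, as the deposited scaling sets it. Relative to the all-gene median, G1 stood at 0.05, S at 0.04 and G2/M at 0.12 with total counts, and at 0.04, 0.01 and 0.09 with the deposited scaling.

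Among the G1 genes, 3 of the 4 most abundant per length were lower in AP in the mean, without passing the adjusted threshold. Ccnd1, the cyclin D gene that growth signals induce in many epithelia, had normalized counts (reads divided by a size factor per library) of 1544, 1315, 1281 and 1273 (VC) against 941, 1005, 918 and 1158 (AP). The groups did not overlap: the highest AP library lay below the lowest VC library. The log2 fold change was -0.43 (standard error 0.14), with an adjusted p of 0.0722 in limma. Cdk4, the kinase partner of the D-type cyclins, had 1719, 1470.4, 1604 and 1746 (VC) against 1192, 1264, 1309 and 1325 (AP), again without overlap. Its log2 fold change was -0.36 (standard error 0.13), with an adjusted p of 0.0993 in limma. By DESeq2 on the recovered reads both genes passed, with adjusted p of 0.0265 for Ccnd1 and 0.0248 for Cdk4. With total counts both passed in limma in the opposite direction, higher in AP, with log2 fold changes of 0.44 (adjusted p 0.0375) and 0.51 (adjusted p 0.02). With this scaling the all-gene median was 0.90, so both genes still lay below it.

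Ccnd3, the third D-type cyclin gene, had the lowest fold change of the G1 genes, with normalized counts of 773, 896, 1023 and 1185 (VC) against 817, 729.5, 528 and 614 (AP). AP.2, AP.3 and AP.4 lay below every VC library, while AP.1 lay between VC.1 and VC.2. The estimate, as log2 fold change, was -0.53 (standard error 0.18), with an adjusted p of 0.0835 in limma. Cdk6, which also binds D-type cyclins, differed in the opposite direction from Cdk4, with 120.1, 177, 224 and 131 (VC) against 189, 321, 274 and 295 (AP). AP.2, AP.3 and AP.4 were above every VC library and AP.1 was not. For Cdk6 the log2 fold change was 0.74 (standard error 0.24), with an adjusted p of 0.072 in limma, and it passed by DESeq2 (0.0445) and, in limma, on leaving out VC.3 or AP.1. The ratio of Cdk6 to Cdk4 counts, which does not depend on library scaling, was 0.0698, 0.121, 0.140 and 0.0752 (VC) against 0.158, 0.254, 0.209 and 0.223 (AP). Thus the ratio was higher in every AP library than in every VC library. The transcripts differ in length, and with the trend on length described below removed, the log2 fold changes came closer, to 0.21 for Cdk6 and -0.17 for Cdk4; this pair was chosen after its values were seen.

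The other G1 genes gave estimates near 0. Ccnd2 had 1921, 1683, 1843 and 1149 (VC) against 1453, 1912, 1987 and 1663 (AP), and its log2 fold change was 0.11 (standard error 0.19), with a 95% confidence interval of -0.31 to 0.52. For the E-type cyclin genes the log2 fold change was 0.08 (Ccne1) and 0.11 (Ccne2), and for their partner Cdk2 it was 0.11. Within VC these genes were spread widely: Ccne2 ranged from 72.8 in VC.1 to 221 in VC.3. Per kilobase of the longest transcript, the mean level over the 8 libraries was 708 for Cdk4, 315 for Ccnd1, 269 for Ccnd2 and 213 for Ccnd3. The same quantity was 63.2 for Cdk2, 43.5 for Ccne2, 32.5 for Ccne1 and 18.8 for Cdk6.

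Of the S genes, Rrm1 was higher in AP. It encodes the large subunit of ribonucleotide reductase, the enzyme that makes deoxynucleotides. Its normalized counts were 442, 468, 335 and 309 (VC) against 503, 536, 807 and 826 (AP), and every AP library lay above every VC library. AP.3 and AP.4 were the highest. The mean was 389 ± 78.4 in VC and 668 ± 172 in AP (SD, n = 4 each). This is a log2 fold change of 0.77 (standard error 0.21), with a 95% confidence interval of 0.29 to 1.24 and an adjusted p of 0.045 in limma. This call is close to the threshold. It was kept on leaving out VC.2 (0.0441) or AP.1 (0.0292) and lost on leaving out any of the other 6 libraries (adjusted p 0.064 to 0.139), and over all 22 other settings the adjusted p ran from 0.000756 to 0.157.

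Rrm2 encodes the small subunit of the same enzyme, the one whose level limits its activity in cycling cells. It had 440.2, 525, 482 and 388 (VC) against 303, 288, 405 and 458 (AP), so that AP.1 and AP.2 lay below every VC library while AP.3 and AP.4 lay within the VC range. Here the log2 fold change was -0.35 (standard error 0.19), with an adjusted p of 0.227 in limma. Thus the estimates for the subunits had opposite signs. The ratio of Rrm1 to Rrm2 counts was 1, 0.893, 0.694 and 0.797 (VC) against 1.66, 1.86, 1.99 and 1.80 (AP), with no overlap between the groups and with means of 0.847 ± 0.133 and 1.83 ± 0.138 (SD, n = 4 each). The transcripts differ in length (5475 and 2193 nucleotides), and with the length trend removed the log2 fold changes were 0.51 for Rrm1 and -0.18 for Rrm2. The pair was chosen after its values were seen, and no test was made of the ratio.

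The 6 Mcm genes encode the subunits of the replicative helicase, which are loaded at origins as a hexamer. Their log2 fold changes were not alike: 0.73 for Mcm5, 0.70 for Mcm4, 0.39 for Mcm2, 0.27 for Mcm6, 0.14 for Mcm3 and -0.07 for Mcm7. None of the 6 passed in limma. Mcm5 had 313, 459.6, 325 and 231 (VC) against 424, 438, 669.6 and 665 (AP), where VC.2 lay above AP.1 and AP.2, and its adjusted p was 0.0662 in limma and 0.0403 in DESeq2. Among single libraries left out, Mcm5 passed in limma only without VC.2 (adjusted p 0.0379). Mcm4 had 331, 282, 257 and 133 (VC) against 307, 360.2, 432 and 476 (AP), with VC.4 the lowest and VC.1 above AP.1, and an adjusted p of 0.107 in limma. Without VC.4 its log2 fold change was 0.43. Mcm7, the most abundant of the 6 per length (181 per kilobase), ranged from 398 to 652 in VC and from 402 to 625 in AP.

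Pcna, the sliding clamp of DNA polymerases, was the most abundant S gene per length, at 617 per kilobase. Its normalized counts were 1066, 997, 851 and 735 (VC) against 826, 885, 901 and 1229 (AP); VC.4 was the lowest and AP.4 the highest, and the groups overlapped. The log2 fold change was 0.07 (standard error 0.18), with a 95% confidence interval of -0.31 to 0.46. The lowest fold change among the S genes was that of Cdc6, which loads the Mcm helicase, with 133, 76.8, 87.4 and 60 (VC) against 54.4, 60.9, 70.8 and 75.8 (AP). VC.1 was the highest library, and the log2 fold change of -0.39 (standard error 0.29) had an adjusted p of 0.383 in limma and was -0.18 without VC.1. For the transcription factor E2f1, the thymidylate synthase gene Tyms, the replication factor Gins2 and the helicase cofactor Cdc45, the log2 fold changes were -0.34, -0.26, -0.24 and 0.07, with adjusted p from 0.313 to 0.87.

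Among the G2/M genes, none passed in limma, and the estimates ran from -1.07 for Birc5 to 0.99 for Kif11. Birc5 encodes survivin, a subunit of the chromosomal passenger complex. Its normalized counts were 771, 272, 295 and 199 (VC) against 150.1, 148, 163 and 175 (AP). Every AP library lay below every VC library, the AP values were close together, and VC.1 stood far above the other VC libraries. Its log2 fold change was -1.07 (standard error 0.34), with an adjusted p of 0.0648 in limma, 0.041 in edgeR and 0.00968 in DESeq2. Without VC.1 it was -0.66, with an adjusted p of 0.0711 in limma. Without VC.4 it was -1.31, with an adjusted p of 0.0409 in limma. Of the other subunits of that complex, the kinase Aurkb had a log2 fold change of 0.44 and, outside the 40 genes, Incenp -0.07 and Cdca8 -0.59, genes looked up after the value of Birc5 was seen.

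Kif11, the kinesin that pushes spindle poles apart, had 238, 225, 184 and 61.9 (VC) against 239, 237, 477 and 362 (AP). AP.3 and AP.4 were the highest libraries, and VC.4 was far the lowest. VC.1 lay close to AP.1 and AP.2. For Kif11 the log2 fold change was 0.99 (standard error 0.40), with an adjusted p of 0.122 in limma, and 0.55 without VC.4. Cdk1, the kinase that drives entry into mitosis, had 457, 369, 401 and 276 (VC) against 194, 239.9, 336 and 283 (AP). AP.1 and AP.2 lay below every VC library, AP.4 lay close to VC.4, and AP.3 lay within the VC range, with a log2 fold change of -0.52 (standard error 0.21) and an adjusted p of 0.131. For its cyclin partners the log2 fold change was 0.29 for Ccnb1 (0.04 without VC.4), -0.42 for Ccnb2 and -0.20 for Ccna2.

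Mki67, which encodes the Ki-67 antigen widely used to mark dividing cells, had 1921, 1489.6, 1477 and 797 (VC) against 1057, 907, 1931 and 1439 (AP). The highest values, in VC.1 and AP.3, were nearly equal, and the groups overlapped over most of their range. This gave a log2 fold change of -0.08 (standard error 0.29), with a 95% confidence interval of -0.72 to 0.55. Top2a, the topoisomerase of dividing cells, gave 824, 1005, 894 and 555 (VC) against 762, 862, 1517 and 1194 (AP), where AP.3 and AP.4 lay above every VC library. Its log2 fold change was 0.38 (standard error 0.24), with an adjusted p of 0.312 in limma. On leaving out single libraries it ran from 0.20 without AP.3 to 0.53 without AP.1. Cdc20, the activator of the anaphase-promoting complex, was the most abundant G2/M gene per length (188 per kilobase), with 273, 502, 344 and 216 (VC) against 310.4, 236, 458 and 362 (AP). Its highest value was in VC.2, and the log2 fold change was 0.06 (standard error 0.27). Mki67 and Top2a, like Rrm2 and Ccnd2, are given by library although no rule fixed beforehand named them.

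For the remaining G2/M genes the groups overlapped. Among the spindle checkpoint kinases the log2 fold changes were 0.28 for Bub1, 0.29 for Bub1b and 0.20 for Ttk. For the mitotic kinases Aurka and Plk1 they were -0.29 and -0.32, and for Tpx2, which activates Aurka on the spindle, 0.10. The kinetochore genes Cenpe and Cenpf had 0.40 and 0.23. Single libraries moved these estimates: Cenpe was 0.12 without AP.3, Plk1 -0.13 without AP.2, Aurka -0.13 without VC.1, and Bub1 and Bub1b 0.14 and 0.14 without AP.3, while Ttk, Tpx2 and Cenpf changed sign. Adjusted p for these 8 genes ran from 0.388 to 0.797 in limma. Per kilobase, the G2/M genes had mean levels from 20 (Cenpe) to 188 (Cdc20).

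Within a group, the mean levels of a phase were spread more widely than the group means differed. The mean log2 level of the G2/M genes was 8.14, 8.14, 7.84, 7.50 (VC) against 7.64, 7.61, 8.41, 8.13 (AP). Its SD was 0.30 within VC and 0.39 within AP, whereas the group means differed by 0.04. For the S genes the level was 8.36, 8.45, 8.27, 7.92 (VC) against 8.13, 8.18, 8.47, 8.66 (AP), with SDs of 0.23 and 0.25 and a difference of 0.11. For the G1 genes it was 8.49, 8.70, 9.01, 8.51 (VC) against 8.48, 8.74, 8.65, 8.76 (AP), with SDs of 0.24 and 0.13 and a difference of -0.02. The mean over all genes tested differed by 0.14.

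The S and G2/M genes had their highest AP value in AP.3 or AP.4 without exception, and their lowest VC value mostly in VC.4. AP.3 held the highest AP value in 17 of 18 G2/M genes, and AP.4 in 12 of 14 S genes. Over all genes tested AP.3 was the highest AP library for 23% and AP.4 for 25.7%. The lowest AP value of the G2/M genes was in AP.1 for 9 and in AP.2 for 9 of 18, and the lowest AP value of the S genes was in AP.1 for 11 of 14. Among the VC libraries, VC.4 was the lowest for 12 of 18 G2/M genes and 11 of 14 S genes, against 26.3% of all genes tested. For the G1 genes the lowest AP value was in AP.1 for 6 of 8, against 29.1% of all genes tested, while the lowest VC value was in VC.1 for 4 and in VC.4 for 3 of 8. Genes of 1 library share its tissue piece and its depth, so these counts are a description and carry no test.

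**Figure D2:**
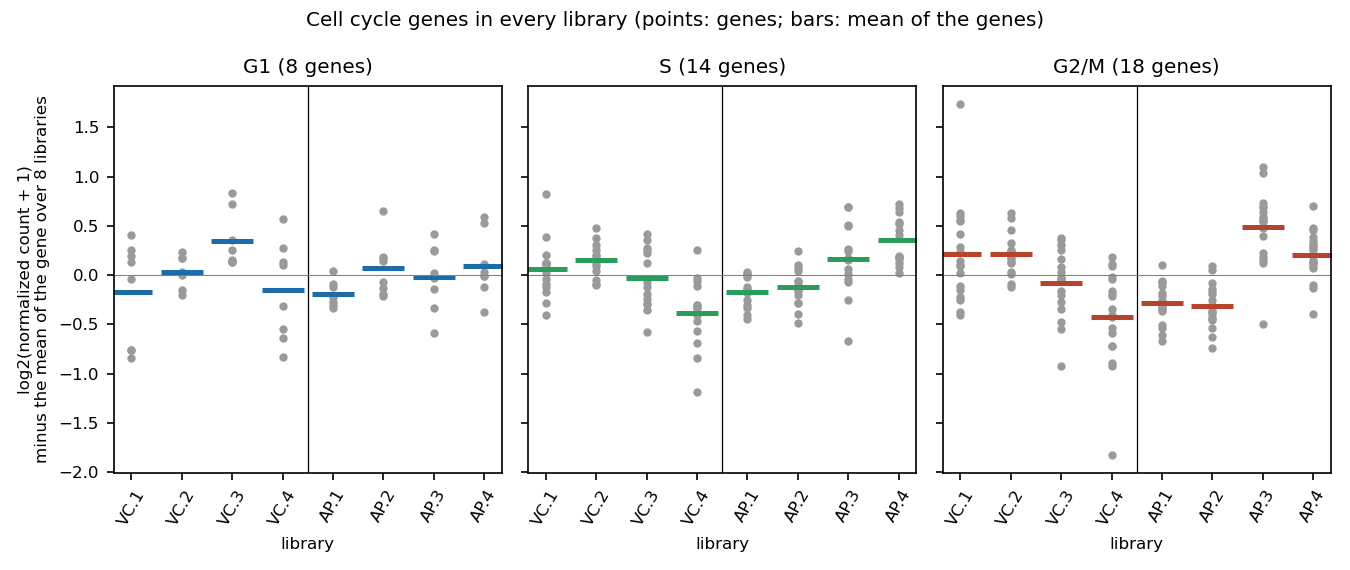
Each of the 8 G1, 14 S and 18 G2/M genes in each library, as log2(normalized count + 1) minus the mean of that gene over the 8 libraries; points are genes and bars their mean. The S and G2/M bars are low in VC.4, AP.1 and AP.2 and highest in AP.4 (S) and AP.3 (G2/M), so the spread within AP is wide beside the difference of 0.04 between the group means of G2/M.

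Further genes of the cell cycle were taken in 10 lists of 120 genes, of which 119 were found and tested; Lin54 was not analysed here. Of the 119, 4 were higher and 7 lower in AP at an adjusted p under 0.05 in limma, beside 6.33% and 4% of all genes tested, and the median log2 fold change was -0.01. Of the same 119, edgeR called 4 higher and 7 lower, and DESeq2 5 and 13, beside 6.28% and 4.46% of all genes in edgeR and 10.5% and 8.53% in DESeq2. None of the 7 genes for inhibitors of cyclin-dependent kinases passed, and 0 were higher and 1 lower at an unadjusted p under 0.05. Of these genes edgeR called 0, and DESeq2 called 1 lower. Cdkn1c, which encodes p57, had 200.1, 257, 193 and 377 (VC) against 222, 101, 85.2 and 117 (AP), with AP.1 alone inside the VC range. Its log2 fold change was -1.01 (standard error 0.31) (adjusted p 0.0601 in limma, 0.0364 in DESeq2). Cdkn1a (p21) had a log2 fold change of 0.33, Cdkn1b (p27) 0.07, Cdkn2c 0.17 and Cdkn2d -0.16. Cdkn2a had low counts of 7.28, 10.3, 6.83 and 9.38 (VC) against 4.35, 3.24, 1.99 and 2.86 (AP), near the floor of 3 reads, and a log2 fold change of -1.22 (adjusted p 0.173). Cdkn2b had 0, 26.6, 32.8 and 39.4 (VC) against 34.8, 39.4, 54.3 and 72.2 (AP), with 0 in VC.1, a log2 fold change of 1.82 and an adjusted p of 0.237 in limma; without VC.1 the log2 fold change was 0.55.

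Of the 12 genes for pocket proteins, E2F and DP factors, 0 passed (median 0.25), with 2 higher and 1 lower at an unadjusted p under 0.05 in limma. Of these 12, edgeR called 1 lower, and DESeq2 1 higher and 1 lower. In the MuvB complex, which represses or activates cell cycle promoters with pocket proteins, B-Myb or FoxM1, Lin37 was lower. It had 235, 124, 189.8 and 143 (VC) against 87, 75.5, 74.7 and 61.5 (AP), and every AP library lay below every VC library (log2 fold change -1.17, standard error 0.25, adjusted p 0.0204); the call ended without AP.2, AP.3 or AP.4. The other 5 tested genes of that list did not pass, among them Mybl2 (B-Myb) at 0.40 and Foxm1 at 0.21, picked out after their values were seen. Of the 6 tested genes, 2 had an estimate above 0 and 4 below, with a median of -0.07. None of the 15 genes of origin licensing and firing passed (median 0.00), with 0 higher and 2 lower at an unadjusted p under 0.05. Of these 15, edgeR called 0, and DESeq2 called 1 lower.

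Replication fork genes gave calls in both directions: of 20, 1 was higher and 3 lower in limma (median -0.25); edgeR called 1 higher and 3 lower, and DESeq2 1 and 4. Pola1, the catalytic subunit of the primase-polymerase, had 70.9, 88.7, 83.3 and 73.1 (VC) against 117, 136, 189 and 175 (AP), each AP library above each VC library (log2 fold change 0.94, standard error 0.23, adjusted p 0.0295; not called without AP.2, AP.3, AP.4 or VC.1). Rfc2, a subunit of the loader of the Pcna clamp, had 677, 501, 519 and 510.0 (VC) against 286, 258, 301 and 278 (AP), the AP libraries being at about the same low level. Its log2 fold change was -0.96 (standard error 0.15), with an adjusted p of 0.00884. This call was kept on leaving out each of the 8 libraries. Rpa2, of the single-strand binding protein, and Dut, which removes dUTP from the nucleotide pool, were also lower without overlap. Rpa2 had 344, 304, 319.5 and 276 (VC) against 186, 170.4, 155 and 221 (AP; log2 fold change -0.77, standard error 0.17, adjusted p 0.023; not called without AP.2, AP.3 or VC.1). For Dut the values were 455, 434, 507 and 321 (VC) against 251, 259, 266 and 279.7 (AP; log2 fold change -0.68, standard error 0.17, adjusted p 0.0326), and among single libraries it was called only on leaving out VC.4. With total counts Rpa2 and Dut turned to 0.10 and 0.19, and Rfc2 stood at -0.09, beside an all-gene median of 0.90.

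Of the 9 genes of the G2 checkpoint, Atm was higher. This kinase gene responds to DNA double-strand breaks and had 69.1, 42.9, 28.7 and 43.1 (VC) against 100.1, 108, 150.5 and 154 (AP), again without overlap, a 2.84-fold difference (adjusted p 0.0175; not called without AP.3 or AP.4). In the list of the anaphase-promoting complex and mitotic exit, 1 of 15 was higher and 2 were lower in limma; edgeR called 1 higher and 1 lower, and DESeq2 1 and 4. The scaffold subunit Anapc1 had 337, 419.7, 415 and 296 (VC) against 522, 629, 749.9 and 666 (AP; log2 fold change 0.81, standard error 0.17, adjusted p 0.0204; not called without AP.2, AP.3 or AP.4). The genes lower in limma encode the ubiquitin-conjugating enzymes of the complex. Ube2s had 1221, 833, 1034 and 797 (VC) against 539.6, 546, 506 and 590.1 (AP), again without overlap. Its log2 fold change was -0.81 (standard error 0.16), with an adjusted p of 0.0167 in limma, lost without AP.3. With total counts it turned to 0.06, beside an all-gene median of 0.90. Ube2c, whose values follow below, had a log2 fold change of -1.74 (standard error 0.45) (adjusted p 0.0345 in limma, 0.0679 in edgeR and 0.0182 in DESeq2), called only on leaving out VC.4 or AP.1 among single libraries.

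Among 13 genes of the kinetochore and the spindle checkpoint, 1 was lower and 0 were higher (median -0.11). This gene, Spc24, had 306, 166, 243 and 242 (VC) against 102, 87.3, 145 and 167 (AP). Its groups overlapped, since AP.4 lay just above VC.2 (log2 fold change -0.94, standard error 0.26, adjusted p 0.0431; among single libraries, called only on leaving out VC.2). Of 14 genes of mitotic kinesins and cytokinesis, Anln, which encodes the contractile ring protein anillin, was higher, with 209, 159.6, 116 and 180.0 (VC) against 221, 244, 420.0 and 374 (AP) and no overlap (log2 fold change 0.90, standard error 0.26, adjusted p 0.048). It was called only on leaving out AP.1 among single libraries, and 0 genes of the list were lower. None of the 8 condensin and cohesin genes passed (median 0.23), with 2 higher and 0 lower at an unadjusted p under 0.05 in limma and 0 and 0 calls by edgeR and DESeq2. In the lists of MuvB, the G2 checkpoint, the kinetochore and the kinesins, edgeR and DESeq2 gave as many calls in each direction as limma. On leaving out single libraries, the count of calls among the 119 fell to as few as 1, without AP.3, while over all genes tested it fell to 303.

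Several of these genes share exon sequence with a gene on the opposite strand, and whether the reads were counted by strand is not given in the sources used here, so such counts are uncertain. Ube2c (chr2:164769898-164778822, mm10) overlaps the end of Tnnc2 (chr2:164777161-164779967), which encodes troponin C of fast skeletal muscle, over 592 bases, or 22.8% of its exons. Its normalized counts were 3760.0, 5246, 3390.4 and 2220.0 (VC) against 3082, 738, 576 and 907 (AP). Tnnc2 had 2674, 4455, 2794 and 1669 (VC) against 2795, 478, 236 and 594 (AP). Both were high in the same 5 libraries, the 4 of VC and AP.1, and low in AP.2, AP.3 and AP.4. The part of Tnnc2 reads in the Ube2c counts was not tested. Ube2s shares 183 bases (3.56% of its exons) with the more abundant Rpl28, which had a log2 fold change of -0.96 (adjusted p 0.0208 in limma).

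Ccnd1 (chr7:144929931-144939925) shares 1100 bases, 23.4% of its exons, with LTO1 on the other strand. LTO1 had 1228, 904, 1023 and 741 (VC) against 565, 526, 545 and 606 (AP), lower in every AP library than in every VC library (log2 fold change -0.77, adjusted p 0.0212 in limma). Cdk4 shares 641 bases (19.7%) with Tspan31, whose log2 fold change was -0.23 (adjusted p 0.323). Ccnd3 shares 361 bases (4.11%) with Bysl, which was lower in AP (log2 fold change -0.80, adjusted p 0.0175). Of the further genes given by library, Cdkn1c has 30.7% of its exons inside Gm44732, with 162, 166, 84.7 and 182 (VC) against 168, 69.6, 50.3 and 79.4 (AP), lowest in AP.2, AP.3 and AP.4 as in Cdkn1c, and Rfc2 has 15.1% inside Lat2, whose log2 fold change was -0.21 (adjusted p 0.79). Of the other members, the largest overlap was in Gins2, with 67.3% of its exons inside Gse1. Rrm1, the Mcm genes other than Mcm7, Birc5, Kif11 and Mki67 had no exon base in common with another annotated gene.

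Fold change was also related to transcript length, in these genes as in all genes. Across the 40 genes, Spearman's rho between the longest transcript and the log2 fold change was 0.30, across the 119 further genes 0.51 and across all 15964 genes 0.24. These are correlations across genes, which are not independent replicates. Among the 159 cell cycle genes together, those under 2000 nucleotides had a median log2 fold change of -0.40, with 5 above 0 and 19 below. Those of 5000 nucleotides or more had a median of 0.40, with 20 above and 5 below. Over all genes tested the medians in these classes were -0.22 and 0.37.

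When a trend on transcript length was removed from each library, several values came closer to 0. Rrm1 (longest transcript 5475 nucleotides) had a log2 fold change of 0.51 and an adjusted p of 0.157 in limma, and none of the 40 genes passed. Cdk6, with the longest transcript of the 40 (11525 nucleotides), moved to 0.21, and Cdk4 (2053 nucleotides) to -0.17. Others moved less: Mcm5 stood at 0.72, Birc5 at -1.07, Ccnd1 at -0.49 and Cdk1 at -0.65. Mki67 (10061 nucleotides) moved away from 0, to -0.57 (adjusted p 0.214). Of the 11 calls among the further genes, Rfc2 (-1.17, adjusted p 0.00583) and Ube2s (-0.92, adjusted p 0.0162) were kept. At an unadjusted p under 0.05 in limma, 10 of the 119 were higher and 19 lower before removal, and 8 and 18 after. Over all genes tested these numbers were 2720 and 2120 before removal, and 2334 and 1820 after. The origin of the length trend was not tested.

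**Figure D3:**
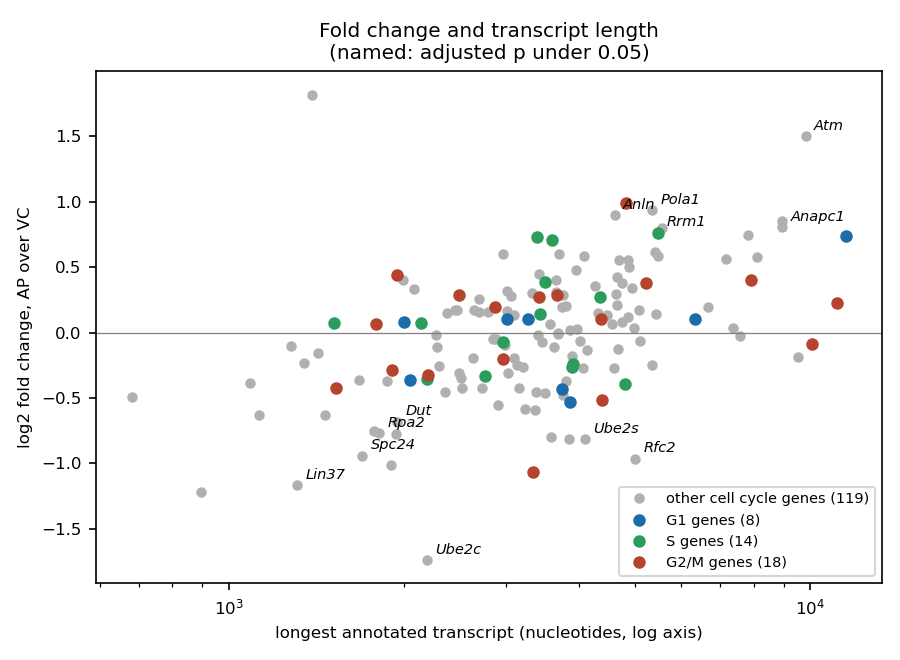
Log2 fold change of AP over VC against the length of the longest annotated transcript (log axis, nucleotides) for the 8 G1, 14 S and 18 G2/M genes and the 119 further cell cycle genes; each point is a gene, and genes with an adjusted p under 0.05 are named. Most long genes lie above 0 (20 of 25 at 5000 nucleotides or more) and most short genes below 0 (19 of 24 under 2000).

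Markers of the cell types in the tissue were followed beside these results, each as the summed normalized count of a list. For the 6 suprabasal keratinocyte genes (Krt1 first, Krt10 the most abundant) the sum was 3176, 8994, 5702 and 3761 (VC) against 31804, 33983, 89014 and 136307 (AP), with 6 of 6 higher and 0 lower in limma. It was higher in every AP library, most of all in AP.3 and AP.4, the libraries with the highest S and G2/M levels in AP. The 6 basal keratinocyte genes, with Krt5 first and Krt14 the most abundant, summed to 24117, 78089.7, 46699.9 and 21902 (VC) against 49171, 52381, 94066 and 138232 (AP; 3 of 6 higher and 0 lower). Basal keratinocyte genes are also expressed in the outer root sheath of the follicles, which were kept. How far the basal and suprabasal transcripts came from follicles or from interfollicular epidermis was not tested. Whether the removal of that epidermis was alike in the 2 groups was not tested either. For the hair follicle stem cell genes (Lgr5 first, Krt15 the most abundant) the sum was 7764, 6684, 8269 and 5464 (VC) against 9226, 4823, 10342 and 9028 (AP), and for the hair matrix genes (Shh first, Dlx3 the most abundant) 2505, 1574, 3005 and 626 (VC) against 784, 1642, 1938 and 899 (AP). In neither list did a gene pass in limma; unadjusted p under 0.05 were found for 0 higher and 1 lower of the stem cell genes and 1 and 0 of the matrix genes. By edgeR and DESeq2, 0 and 0 stem cell and 0 and 0 matrix genes passed, and the matrix sum was low in VC.4, AP.1 and AP.4.

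The dermal fibroblast genes (Col1a1, the first and most abundant) summed to 113491, 76169, 78165 and 214350.0 (VC) against 248493, 185673, 133545 and 94665 (AP), with 0 of 6 higher and 0 lower, unadjusted 1 and 0. VC.4, AP.1 and AP.2 had the highest sums, and these 3 libraries had the lowest G2/M levels. The leukocyte genes (Ptprc first, Cd74 the most abundant) summed to 18218, 10505, 7649 and 26829.6 (VC) against 12978, 8597, 7925 and 7976 (AP; 0 of 6 higher and 0 lower, unadjusted 1 and 3), and the endothelial genes (Pecam1, first and most abundant) to 871, 832, 1424 and 1639 (VC) against 2513, 5433, 2127 and 2300.2 (AP; 2 of 6 higher and 0 lower). Endothelial sums were higher in every AP library, with AP.2 the highest. Skeletal muscle genes (Acta1, first and most abundant) summed to 38295, 56913, 28441 and 30735 (VC) against 52750.2, 7405, 4473 and 9665 (AP; 0 of 6 higher and 0 lower, unadjusted 0 and 4), with low values in AP.2, AP.3 and AP.4 as for Ube2c and Tnnc2. The adipocyte genes (Adipoq first, Fabp4 the most abundant) summed to 25039, 9422, 9972 and 14301 (VC) against 14535, 22125, 11460.1 and 8491 (AP; 0 of 6 higher and 0 lower, unadjusted 1 and 0). For red blood cells (Hba-a1 first, Hbb-bs the most abundant) the sum was 780.4, 507, 905 and 553 (VC) against 1078, 1550.2, 685 and 754 (AP; 1 of 5 higher and 0 lower), with unadjusted p under 0.05 for 1 higher and 1 lower. The lower one was Hba-a2 (log2 fold change -0.81, adjusted p 0.0901 in limma and 0.0396 in DESeq2), and Slc4a1 was at 0 in all VC libraries and was not tested. By edgeR and DESeq2 the calls numbered 1 and 2 for red blood cells, 2 and 3 for basal and 6 and 6 for suprabasal keratinocytes, 2 and 4 for endothelium, 0 and 0 for fibroblasts, 0 and 2 for leukocytes, 0 and 0 for muscle and 0 and 0 for adipocytes. All these calls were higher in AP except 1 red blood cell gene and 2 leukocyte genes, called lower by DESeq2. Among the muscle genes, Ckm and Tnnt3 had no p in DESeq2 and could not be called there. The part of cell type shares in the cell cycle results was not tested.

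Short motifs were counted in the promoters of each phase, as a description without a test. Promoter windows of 300 bases around the start of transcription (RefSeq, GRCm38.p6) were matched for 32 of the 40 genes, with 2 windows each for Ccnd3 and Mcm7; Ccnd1, Ccnd2, Ccne2, Mcm4, Gins2, Ccna2, Aurkb and Tpx2 had no entry. A core of the E2F site, searched on both strands as TTTCCCGC, TTTCGCGC, TTTGCCGC or TTTGGCGC, was in 1 of 5 G1, 5 of 12 S and 1 of 15 G2/M genes, beside 2.60% of all 27025 genes with a window. The letters TTTGAA of the cell cycle homology region, an element bound by MuvB complexes, were in 0 of 5 G1, 2 of 12 S and 11 of 15 G2/M genes, beside 20.2% of all. The letters CCAAT, like TTTGAA searched on both strands, were in 2 of 5, 9 of 12 and 14 of 15, beside 41.1%, and both TTTGAA and CCAAT in 11 of 15 G2/M genes, beside 7.97%. Matches of the E2F letters on opposite strands can overlap each other, and a match does not show that a factor binds. The E2F genes by this search were Cdk2, Mcm3, Mcm5, Mcm6, Mcm7, Cdc6 and Cdk1.

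Windows of S and G2/M genes are shown to let the motifs be compared, in lower case, 5′ to 3′ on the strand of the gene. In Mcm5 and Mcm6, capitals mark the E2F letters, on either strand; these windows are Mcm5 (chr8:75109259-75109558, plus strand) and Mcm6 (chr1:128359656-128359955, minus strand).
Mcm5: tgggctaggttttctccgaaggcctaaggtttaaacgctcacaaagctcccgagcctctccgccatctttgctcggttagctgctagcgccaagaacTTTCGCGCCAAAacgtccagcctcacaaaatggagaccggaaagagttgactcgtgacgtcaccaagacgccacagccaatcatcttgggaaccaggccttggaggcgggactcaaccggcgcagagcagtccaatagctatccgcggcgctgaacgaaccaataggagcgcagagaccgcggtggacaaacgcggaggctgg
Mcm6: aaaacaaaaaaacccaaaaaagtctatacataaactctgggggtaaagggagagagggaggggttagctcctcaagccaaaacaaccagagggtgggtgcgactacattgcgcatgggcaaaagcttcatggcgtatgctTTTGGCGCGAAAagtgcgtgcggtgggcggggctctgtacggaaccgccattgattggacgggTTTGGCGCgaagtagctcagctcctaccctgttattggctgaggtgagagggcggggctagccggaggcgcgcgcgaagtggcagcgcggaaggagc
In Ccnb2 and Cdc20, capitals mark TTTGAA and CCAAT; these windows are Ccnb2 (chr9:70421505-70421804, minus strand) and Cdc20 (chr4:118437294-118437593, minus strand).
Ccnb2: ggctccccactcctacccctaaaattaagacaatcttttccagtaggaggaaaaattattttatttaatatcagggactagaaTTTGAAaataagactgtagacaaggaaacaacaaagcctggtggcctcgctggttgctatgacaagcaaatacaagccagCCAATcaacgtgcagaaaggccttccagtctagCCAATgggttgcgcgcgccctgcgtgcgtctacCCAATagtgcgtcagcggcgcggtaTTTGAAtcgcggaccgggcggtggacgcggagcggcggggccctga
Cdc20: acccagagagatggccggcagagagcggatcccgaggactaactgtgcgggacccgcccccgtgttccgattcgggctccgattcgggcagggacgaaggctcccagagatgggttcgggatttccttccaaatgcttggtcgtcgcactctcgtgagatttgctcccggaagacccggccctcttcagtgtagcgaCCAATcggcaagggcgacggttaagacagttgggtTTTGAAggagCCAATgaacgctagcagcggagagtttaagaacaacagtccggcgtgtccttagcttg
For these 4 genes the log2 fold changes were 0.73 for Mcm5, 0.27 for Mcm6, -0.42 for Ccnb2 and 0.06 for Cdc20.

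The windows of Rrm1 and Rrm2 are shown because the subunits of ribonucleotide reductase had opposite signs; capitals mark CCAAT, and neither window holds the E2F letters or TTTGAA. They are Rrm1 (chr7:102441445-102441744, plus strand) and Rrm2 (chr12:24708004-24708303, plus strand).
Rrm1: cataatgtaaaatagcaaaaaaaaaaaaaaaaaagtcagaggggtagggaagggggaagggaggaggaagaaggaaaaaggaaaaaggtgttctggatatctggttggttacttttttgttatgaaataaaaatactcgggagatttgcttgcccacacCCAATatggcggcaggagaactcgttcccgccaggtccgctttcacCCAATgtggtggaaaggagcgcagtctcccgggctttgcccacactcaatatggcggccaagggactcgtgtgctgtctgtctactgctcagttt
Rrm2: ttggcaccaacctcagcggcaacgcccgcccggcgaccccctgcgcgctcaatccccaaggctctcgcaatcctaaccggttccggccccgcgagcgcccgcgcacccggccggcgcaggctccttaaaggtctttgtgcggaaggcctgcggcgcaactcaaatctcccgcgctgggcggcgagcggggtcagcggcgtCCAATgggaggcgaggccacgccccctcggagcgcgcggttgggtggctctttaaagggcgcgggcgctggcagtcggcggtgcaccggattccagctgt
Rrm1 has 2 and Rrm2 1 such match.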

How the data were processed

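Polyadenylated RNA of 8 libraries was sequenced. According to the study's methods and the submitters' notes, the authors aligned reads to mm10 with STAR, counted them per gene (featureCounts in the methods, HTSeq in the notes) and divided the counts by DESeq2 size factors. The expression signal used here is these deposited normalized counts. The same table also holds the authors' own comparison of AP with VC (mean, log2 fold change, its error, statistic, p and adjusted p per gene), which was not used.

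A gene was tested where 4 or more of the 8 libraries reached 3 normalized counts, which kept 15964 of 18770. AP was compared with VC by limma 3.58.1 (R 4.3.3) on log2(value + 1) with an intensity trend, two-sided, with p adjusted by Benjamini-Hochberg over all genes tested, adjusted p under 0.05, and 95% confidence intervals. Dividing each library by 1 factor gave whole reads for 100% of 150160 values, within 0.001 reads. On these, edgeR 4.0.16 called 1715 genes and DESeq2 1.42.0 called 3039, against 1650 by limma. Intervals between libraries include the counting error of reads. Library shares were compared by exact permutation (Python 3.11.15, scipy 1.17.1).

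The members, the phase lists, the 10 further lists (chosen to cover regulators and machinery of the cycle) and the marker lists were chosen with earlier results of these data known. Members with an unadjusted p under 0.05, and the most abundant, highest and lowest in fold change of each phase, are given by library; of the further lists, the genes called and all inhibitors are named. Transcript lengths are the longest of each gene in GENCODE M21, and promoters are RefSeq windows of GRCm38.p6. Alternative settings and leaving out each library are given at the end.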

Additional observations from a re-analysis of the deposited data

Results flagged for a closer look

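Each of the 40 genes and each phase mean was tested in each group of 4 libraries for a highest or lowest library whose gap to the nearest of the others takes up more of the range than chance gives in 1 of 20 groups. Of 86 groups, 8 had such a library, and chance alone gives about 1 in 20 in groups that are independent. These groups are not independent, since the genes share the same libraries and the phase means are made from them. The count is therefore a description. Ccnd1 in VC.1 was 1544.39 normalized counts, above the 1273 to 1315 of the other VC libraries. Cdk2 in VC.4 was 112.501 normalized counts, below the 220.1 to 240.3 of the other VC libraries. E2f1 in VC.1 was 174.63 normalized counts, below the 226 to 229 of the other VC libraries. Mcm2 in VC.4 was 268.128 normalized counts, below the 375 to 384 of the other VC libraries. Tyms in AP.4 was 258.202 normalized counts, above the 189 to 196 of the other AP libraries. Birc5 in VC.1 was 771.283 normalized counts, above the 199 to 295 of the other VC libraries. Aurka in VC.1 was 203.735 normalized counts, above the 126 to 134 of the other VC libraries. Aurkb in VC.2 was 198.021 normalized counts, above the 98.3 to 111 of the other VC libraries.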

How the results depend on the processing

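The values as reported are, for counts, medians and group differences: all genes passing 1650, all genes passing, higher 1011, all genes passing, lower 639, G1 genes passing 0, S genes passing 1, G2/M genes passing 0, further cell cycle genes passing 11, further cell cycle genes passing, higher 4, further cell cycle genes passing, lower 7, G1 median 0.0944, S median 0.0705, G2/M median 0.15, Mitochondrially encoded share of counts -39.8, Total reads on listed genes 3095758. For the log2 fold change of single genes under 22 alternative settings, 1098 values kept direction and side of the threshold, 83 kept direction and lost the call, 42 kept direction and gained it, and 52 changed sign. Of these, 25 gained calls and 19 sign changes came with total counts, which moved the all-gene median by 0.84. The settings that moved a count by more than 1.5 times, moved a median by more than 1 SD between replicates, or changed the sign of a median or gene are listed here with the value each gave, as a log2 fold change where only a gene is named.

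With DESeq2 on recovered reads: all genes passing 3039, all genes passing, higher 1677, all genes passing, lower 1362, G1 genes passing 3, S genes passing 2, G2/M genes passing 1, further cell cycle genes passing 18, further cell cycle genes passing, lower 13, G1 median -0.00506, Ccne1 -0.0285. With length trend removed: all genes passing 1094, all genes passing, higher 666, S genes passing 0, further cell cycle genes passing 2, further cell cycle genes passing, higher 0, further cell cycle genes passing, lower 2, G1 median -0.0295, G2/M median -0.0172, Ccnd2 -0.22, Cdkn1b -0.0902, Cdkn2d 0.15, Cenpe -0.00394, Cenpf -0.29, Tpx2 -0.0304. With limma without the intensity trend: all genes passing 592, all genes passing, higher 376, all genes passing, lower 216, S genes passing 0, further cell cycle genes passing 5, further cell cycle genes passing, higher 2, further cell cycle genes passing, lower 3. With total counts: all genes passing 8727, all genes passing, higher 8657, all genes passing, lower 70, G1 genes passing 5, S genes passing 10, G2/M genes passing 12, further cell cycle genes passing 66, further cell cycle genes passing, higher 66, further cell cycle genes passing, lower 0, G1 median 0.95, S median 0.94, G2/M median 1.02, Aurka 0.58, Ccna2 0.67, Ccnb2 0.45, Ccnd1 0.44, Ccnd3 0.34, Cdc6 0.47, Cdk1 0.35, Cdk4 0.51, Cdkn2d 0.71, Dut 0.19, E2f1 0.53, Gins2 0.63, Mcm7 0.80, Mki67 0.79, Plk1 0.54, Rpa2 0.10, Rrm2 0.52, Tyms 0.61, Ube2s 0.058. With the rule of adjusted p under 0.1: all genes passing 3298, all genes passing, higher 1917, all genes passing, lower 1381, G1 genes passing 4, S genes passing 2, G2/M genes passing 1, further cell cycle genes passing 19, further cell cycle genes passing, lower 14. With upper-quartile factors: G1 genes passing 1, S genes passing 0, further cell cycle genes passing, lower 12. With voom with sample weights: G1 genes passing 1, G2/M genes passing 1, G1 median -0.0428, Ccne1 -0.058, Ccne2 -0.0276, Cdc20 -0.0231. With voom on recovered reads: S genes passing 0, further cell cycle genes passing, higher 2. With the rule of unadjusted p under 0.01 and fold change over 1.5: S genes passing 2, G2/M genes passing 1, further cell cycle genes passing, lower 11. With edgeR on recovered reads: G2/M genes passing 1, G1 median -0.0122, Ccne1 -0.0341. With reads drawn down: Ccne1 -0.0259.

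Leaving out single libraries, the lowest to highest values were, with every gene whose log2 fold change changed sign or moved by more than 1.5 times: all genes passing 303 to 1899, all genes passing, higher 209 to 1082, all genes passing, lower 94 to 817, G1 genes passing 0 to 1, S genes passing 0 to 2, G2/M genes passing 0 to 1, further cell cycle genes passing 1 to 11, further cell cycle genes passing, higher 0 to 4, further cell cycle genes passing, lower 1 to 7, G1 median -0.16 to 0.19, S median -0.0268 to 0.16, G2/M median -0.0212 to 0.29, Ccnd2 -0.0589 to 0.19, Ccne1 -0.18 to 0.34, Ccne2 -0.13 to 0.40, Cdc20 -0.12 to 0.28, Cdc45 -0.0256 to 0.21, Cdk2 -0.15 to 0.21, Cdkn1b -0.0379 to 0.10, Cenpf -0.0441 to 0.41, Mcm7 -0.22 to 0.0469, Mki67 -0.34 to 0.083, Pcna -0.0534 to 0.15, Tpx2 -0.0758 to 0.26, Ttk -0.0761 to 0.42, Mitochondrially encoded share of counts -41.9 to -37.8, Total reads on listed genes 2650319 to 3544429, Aurka -0.40 to -0.13, Aurkb 0.30 to 0.67, Birc5 -1.31 to -0.66, Bub1 0.14 to 0.45, Bub1b 0.14 to 0.40, Ccna2 -0.29 to -0.13, Ccnb1 0.036 to 0.53, Cdc6 -0.56 to -0.18, Cdkn2b 0.55 to 2.33, Cdkn2c 0.0696 to 0.23, Cdkn2d -0.24 to -0.0929, Cenpe 0.12 to 0.57, E2f1 -0.45 to -0.17, Kif11 0.55 to 1.19, Mcm3 0.0161 to 0.23, Mcm4 0.43 to 0.86, Mcm6 0.14 to 0.36, Plk1 -0.51 to -0.13, Top2a 0.20 to 0.53, Tyms -0.46 to -0.15. With 4 against 3 libraries the smallest exact permutation p is 0.0571.

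Total counts include the mitochondrial reads, which were 48.4% of VC and 8.66% of AP reads on average; with them 8657 genes were higher and 70 lower. The cause of the changes was not tested. No paired analysis was possible. The deposited sample titles of the 2 groups share no number, and the library numbers used here are not tied to these titles and pair nothing. The alternatives for the counts of further cell cycle genes passing, and leaving out libraries for the total reads, were chosen after seeing the data. Cdkn2a had no value at the filter of 10 normalized counts. Depth limits the genes near 3 reads, of which Cdkn2a is named, and intervals from 4 libraries per group are wide beside the estimates.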
